A study of Caenorhabditis elegans with 2 samples.

Results

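The transfer RNA (tRNA) genes of chromosomes II, III, IV and V of Caenorhabditis elegans were examined for regions bound by SNPC-4. They were taken from the RefSeq annotation of the WBcel235 assembly (ce11) as all genes of the biotype tRNA on those chromosomes. K11H12.t1 of chromosome IV, the selenocysteine tRNA gene, was left out; its best pooled region had a signal value of 686, above every gene kept. This gave 269 genes, of 612 nuclear tRNA genes and of 46926 annotated genes: 57 on II, 64 on III, 70 on IV and 78 on V. An isotype was annotated for 268 of them. The measurements came from 2 chromatin immunoprecipitation sequencing (ChIP-seq) libraries, biological replicates 1 and 2 of 1 group, made from embryos, used whole, of several stages and both sexes. The strain, OP179, carries unc-119(ed3) on III and the transgene wgIs179, through which SNPC-4 is tagged with enhanced GFP. The antibody is listed under snpc-4, and whether it bound the tag or the protein itself is not stated. No untagged or control library was analysed here. The values are those of whole embryos, so a larger share of cells with binding and more binding per cell cannot be told apart.

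A tRNA gene is transcribed by RNA polymerase III from a promoter inside the gene itself. Its internal A and B boxes are bound by the factor TFIIIC, which places TFIIIB just upstream of the gene, and a run of T residues after the gene ends transcription. SNPC-4 belongs to SNAPc (snRNA-activating protein complex) and contacts DNA at the proximal sequence element, a promoter element before the genes of small nuclear RNAs (snRNAs). In worms it is also known to bind the piRNA clusters. Ordinary tRNA genes are not among the textbook targets of SNAPc, whereas the selenocysteine tRNA gene of vertebrates has an upstream proximal sequence element.

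Many of the genes had a SNPC-4 region beside them, and a minority of these regions were strong. Each deposited candidate list held 30000 regions, ordered here by the authors' signal value, and a gene was given the region of highest signal whose summit lay within 200 bp of the gene. In the list of both replicates pooled, 135 of 269 tRNA genes had a region, a share of 50.2% (95% Wilson interval 44.3% to 56.1%). Tiled windows of 472 bp, the reach of a median tRNA gene, held a summit in 13.2% of 142966 cases over the same chromosomes. The 1099 strongest pooled regions, as many as the authors' thresholded ce10 list holds, are called strong below; their signal was 31.3 or more. A strong region lay at 28 tRNA genes, or 10.4% (7.30% to 14.6%), against 0.466% of the tiled windows. A region was present in the pooled list and in both replicate lists at 95 tRNA genes, or 35.3% (29.9% to 41.2%), against 3.24% of the tiled windows. All 3 shares stood above the tiled background. Intervals cover counting error only, and the read depth behind the lists is unknown.

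Signal at the tRNA genes was moderate with a long upper tail. Over the 135 genes with a pooled region the signal had a median of 17.2 (quartiles 11.1 and 29.0) and ran between 6.72 and 501. The median over all 19578 pooled candidate regions of these chromosomes was 9.59, and the strongest had 4055. The median rank of the tRNA regions was 3422 of 30000. The 135 genes shared 128 distinct regions, since 14 genes lay close enough to another tRNA gene to be given the same one. The 28 strong genes had 26 distinct regions, for W09G10.t2 and W09G10.t3 shared one and T23F1.t1 and T23F1.t2 another. The authors' thresholded ce11 list holds 213 peaks, 0 of them on II to V, whereas the ce10 list holds 1099 in all. The ce11 list may not be complete, so that 0 says nothing about these genes, and the list was not used to call regions.

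The shares can be read beside those of other gene classes, as a description without a test. The 276 tRNA genes of X had a region in 49.3% and a strong one in 11.2% of cases, so the intervals of both shares overlapped those of II to V. Of the 135 genes on II to V, 8 exceeded 68.4, the highest signal at any tRNA gene of X. The 66 tRNA genes of chromosome I had a region in 56.1% and a strong one in 3.03% of cases (0.835% to 10.4%), with a highest signal of 569, above every gene of II to V kept here. The 170 annotated tRNA pseudogenes of II to V had a region in 13.5% of cases (9.19% to 19.5%), near the tiled background, and a strong one in 0, with an upper Wilson limit of 2.21%. Only 1.76% of the pseudogenes had a region in all 3 lists. The 84 snRNA genes of II to V, the known SNAPc targets, had a strong region in 63.1% of cases, with a median signal of 135 at those with any region. Coding genes had a region at 3985 and a strong one at 241 (1.27%) of their 19023 transcript starts. Among other small RNA genes, the 239 snoRNA genes had strong regions in 18.4% and the 154 microRNA genes in 2.60% of cases.

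**Figure D1:**
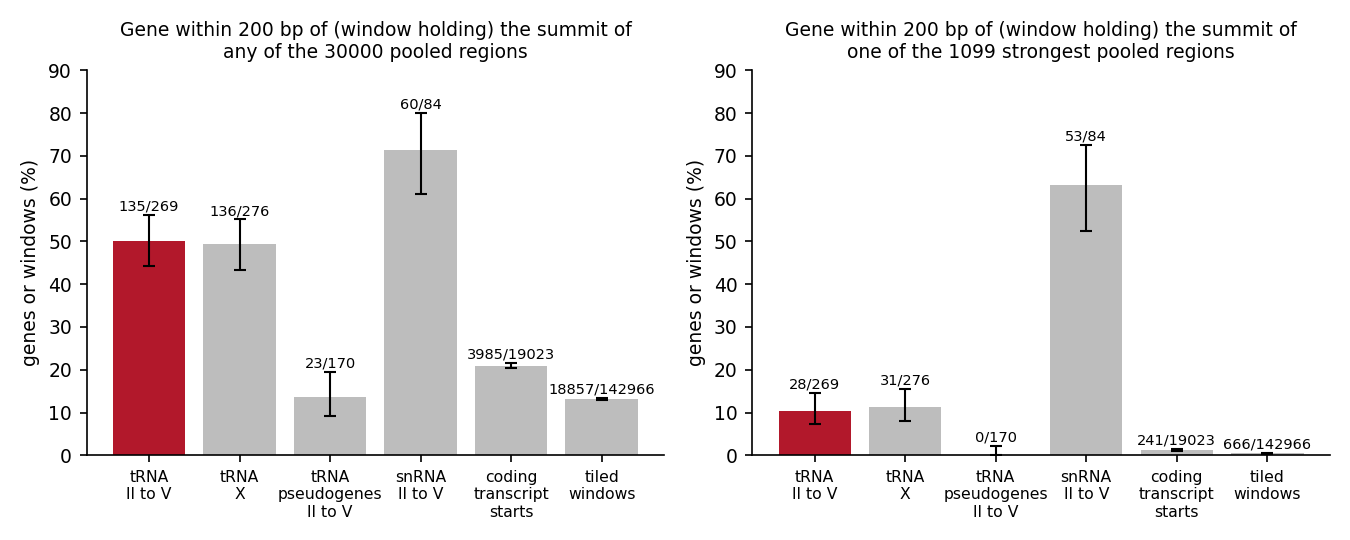
Share of genes within 200 bp of the summit of any pooled candidate region (left) and of a strong one (right), and of tiled windows that hold such a summit, in percent with 95% Wilson intervals as bars; numbers above the bars are those with a region over all of the class. The tRNA genes of II to V (red) stand at 50.2% and 10.4%, close to those of X, above tRNA pseudogenes and below snRNA genes.

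The strongest regions were seen in both libraries. Read depth and the scale of the signal are not known for either list, so ranks are the firmer comparison; the median signal of candidate regions on these chromosomes was 5.45 in replicate 1 and 5.87 in replicate 2. C27A2.t1, a tRNA-Ile gene, had 263 in replicate 1 and 237 in replicate 2. ZC412.t1, a tRNA-Phe gene, had 179 in replicate 1 and 201 in replicate 2. Y37A1B.t1, a tRNA-Ala gene, had 104.5 in replicate 1 and 110.1 in replicate 2. These 3 genes headed the tRNA genes in each replicate list: C27A2.t1 ranked 53 and 59, ZC412.t1 65 and 66, and Y37A1B.t1 93 and 91 in replicates 1 and 2. Of the 28 strong genes, 26 had a region in both replicate lists, and 16 were among the 1099 strongest of each. The tRNA-Asn gene ZK507.t1 was an exception: its pooled signal was 53.6 and its replicate 1 signal 34.1, while the nearest summit of the replicate 2 list lay 5148 bp away. Of all 678 strong pooled regions of these chromosomes, 2 had no replicate 1 summit within 200 bp of their own and 5 had no replicate 2 summit there. The tRNA-Thr gene C24H11.t1 had 22.1 in replicate 2 and was without a region in replicate 1 by distance alone, for a summit with a signal of 16.9 lay 225 bp from the gene, outside the window. C38C6.t1, a tRNA-Leu gene, had 29.3 in replicate 2 and 5.95 in replicate 1.

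Agreement between the replicates was moderate, and lower without the strongest genes. Over the 95 tRNA genes in all 3 lists, rho (Spearman) between the replicate signals was 0.55, and on the log2 scale r (Pearson) was 0.76. Without the 8 genes of highest pooled signal, a limit set after the values were seen at the gap between 87.6 and 57.0, rho was 0.41 and r was 0.42 over 87 genes, a set whose range of signal is narrower by construction. These are descriptions across genes of the same 2 libraries, and genes are not replicates. Taken one list at a time, 138 tRNA genes had a region in replicate 1 and 124 in replicate 2. No list held a region at 103 genes, 30 genes had one in a single list and 41 in a pair of lists.

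**Figure D2:**
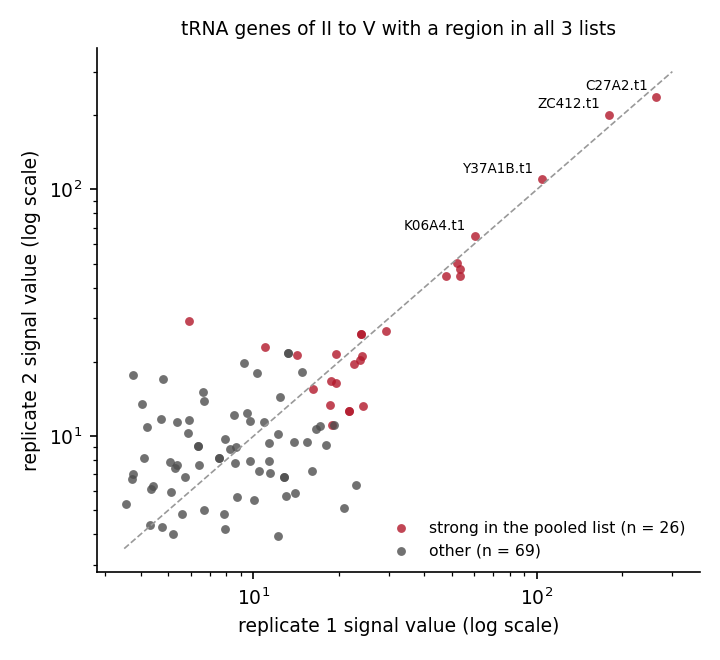
Signal value of the best region in replicate 1 (x axis, log scale) and replicate 2 (y axis, log scale) for the 95 tRNA genes with a region in all 3 lists; each point is a gene, red marks a strong pooled region, and the dashed line is equality. The genes of highest signal lie near the line, and below a signal of about 30 the points spread widely.

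The 8 genes above the gap came from 6 isotypes and lay on all 4 chromosomes. C27A2.t1 (II, 5057447 to 5057520, minus strand), with the anticodon AAT, had a pooled signal of 501 and sits in an intron of C27A2.12 on the same strand. ZC412.t1 (V, 14876389 to 14876461, minus strand) had 379.9 and lies in an intron of ZC412.10, also on the same strand. Y37A1B.t1 (IV, 14013805 to 14013876, minus strand) had 215 and is intergenic. K06A4.t1 (V, 9503562 to 9503633, plus strand), a tRNA-Ala gene with the anticodon CGC, had 127 and lies in an intron of swt-5, a gene of the SWEET sugar transporter family. T21B4.t1 (II, 12494741 to 12494814, plus strand), a second tRNA-Ile gene, had 103 and lies opposite to its host gene col-85, a collagen gene.

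Signal stepped down slowly through the remaining members of this group. ZK1067.t1 (II, 9211804 to 9211887, minus strand), a tRNA-Tyr gene in an intron of ZK1067.4 on the opposite strand, had 94.1 in the pooled list, with 53.5 in replicate 1 and 44.45 in replicate 2. T19C4.t1 (V, 11174790 to 11174873, minus strand), a tRNA-Leu gene in an intron of gpa-1, a G protein alpha subunit gene, had 92.7, with 52.4 in replicate 1 and 50.2 in replicate 2. F11H8.t1 (III, 7030557 to 7030628, minus strand), an intergenic tRNA-Thr gene, had 87.6, with 47.6 in replicate 1 and 44.4 in replicate 2. K06A4.t1 had 60.2 in replicate 1 and 64.4 in replicate 2, and T21B4.t1 had 53.6 in replicate 1 and 47.6 in replicate 2. The order of the first 4 genes was the same in both replicate lists. Of the 8 genes, 6 are intronic, and 7 overlap an annotated non-coding RNA gene on the opposite strand.

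These 5 sequences are shown because they pair strong genes whose bodies are alike while their flanks differ, with the Phe gene as the second strongest. Each runs from 60 bases upstream of the gene to its last base on the gene's own strand, in ce11, and capitals mark the B box letters GTTCNANNC.
C27A2.t1, chrII:5057447-5057580, minus strand: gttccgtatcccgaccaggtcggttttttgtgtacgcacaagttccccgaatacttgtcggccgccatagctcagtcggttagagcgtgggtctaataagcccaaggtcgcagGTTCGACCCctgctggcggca
T21B4.t1, chrII:12494681-12494814, plus strand: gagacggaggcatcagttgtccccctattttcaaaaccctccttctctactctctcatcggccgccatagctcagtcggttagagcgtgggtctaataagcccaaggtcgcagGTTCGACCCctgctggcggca
Y37A1B.t1, chrIV:14013805-14013936, minus strand: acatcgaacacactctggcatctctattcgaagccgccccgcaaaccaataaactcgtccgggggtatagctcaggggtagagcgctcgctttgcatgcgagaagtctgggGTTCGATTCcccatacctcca
K06A4.t1, chrV:9503502-9503633, plus strand: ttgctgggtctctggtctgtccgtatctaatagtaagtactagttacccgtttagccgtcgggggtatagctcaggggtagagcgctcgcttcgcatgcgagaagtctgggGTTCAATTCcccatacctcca
ZC412.t1, chrV:14876389-14876521, minus strand: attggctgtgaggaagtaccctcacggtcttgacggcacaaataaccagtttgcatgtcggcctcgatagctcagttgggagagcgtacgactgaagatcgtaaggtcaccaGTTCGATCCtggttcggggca

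The 2 Ile genes matched at 74 of 74 gene bases and at 29 of 100 aligned bases upstream, and their pooled signals were 501 and 103. Y37A1B.t1 and K06A4.t1 matched at 70 of 72 gene bases and at 22 of 100 bases upstream. Counted from the 5′ end of the gene, with Y37A1B.t1 first, the differences were T33C, in the anticodon, and G56A, in the B box. The pairs were shown for their like bodies and unlike flanks, so this contrast follows from the choice. Upstream bases of copies without a region were not compared, and a link between these bases and the signal was not tested.

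Genes of identical sequence differed widely in signal. The C27A2.t1 body occurs in 7 of the 269 genes; 3 of these had a pooled region, at 501, 103 and 8.47 (Y119D3B.t1), and 4 had none. The ZC412.t1 body occurs in 5 of the genes, and the other 4, C06G4.t1, F22B7.t3, F22B7.t4 and Y66D12A.t1, had no pooled region. Y66D12A.t1 had a region of 4.20 in the replicate 1 list alone and F22B7.t3 one of 5.26 in the replicate 2 list alone. The Y37A1B.t1 body occurs in 5 genes, 3 with a region, at 215, 32.7 (B0491.t1) and 8.13. Larger families also spread in the pooled list. The 12 tRNA-Asn genes of one sequence had 5 regions between 7.72 and 53.6, but 0 of these genes had a region in all 3 lists. There were 5 regions between 6.77 and 36.8 at 11 tRNA-Pro genes, and 8 between 7.57 and 19.6 at 10 tRNA-Asp genes. At 8 of 10 tRNA-Lys genes with the anticodon CTT a region was present, of 9.64 to 47.8. The family of F11H8.t1 had a region at 7 of its 8 genes. How reads that fit several copies were placed is not given in the sources used here, and its part in these values was not tested.

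**Figure D3:**
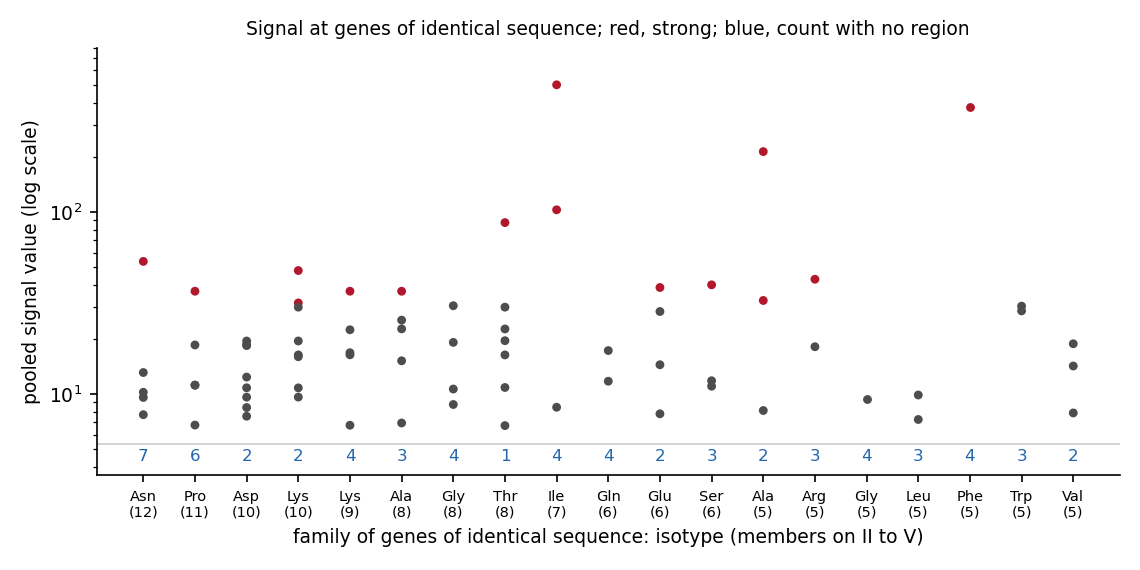
Pooled signal value (y axis, log scale) of tRNA genes of II to V in families of identical gene sequence, for the families with 5 or more members there; each point is a gene with a region, red where strong, and the blue number counts members with no region. The highest members stand at 501 (Ile, next 103), 379.9 (Phe, the only member with a region) and 215 (one Ala family, next 32.7). Gaps below the highest member are also seen at lower signal, as at Thr (87.6, next 30.1) and Asn (53.6, next 13.15).

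The other 20 strong genes lay between 31.7 and 57.0. F57F5.t1, a tRNA-Ile gene with the anticodon TAT and no exact copy, had 57.0 in the pooled list, 29.3 in replicate 1 and 26.7 in replicate 2. The region shared by the tRNA-Lys gene W09G10.t2 and the tRNA-Thr gene W09G10.t3 had 47.8, with 23.9 in replicate 1 and 25.9 in replicate 2. Its summit lay 66 bp upstream of W09G10.t3 and 99 bp downstream of the 5′ end of W09G10.t2. M57.t1, a tRNA-Arg gene in an intron of unc-33, had 42.8. C04A2.t1, a tRNA-Leu gene, had 42.3, and Y4C6B.t1, a tRNA-Gln gene, had 42.0. K12H4.t1, a tRNA-Pro gene in pros-1, the Prospero homeobox gene, had 41.4. F42A10.t1, a tRNA-Ser gene, had 39.9, Y55F3BR.t1, a tRNA-Glu gene, 38.6, and the tRNA-Lys gene T23F1.t1 and the tRNA-Pro gene T23F1.t2 shared a region of 36.8. The signal that bounded the 1099 strongest regions was 17.0 in replicate 1 and 16.7 in replicate 2, so several of these genes lay near it in one library or the other.

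Values at the limit of the strong set were close together. Just inside it were B0491.t1 at 32.7, C38C6.t1 also at 32.7 and B0350.t1 at 31.7. Just outside were Y57G11B.t1 at 30.6, sup-5 at 30.5 and W10G11.t1 at 30.1. The limit thus divides a continuous range. sup-5, known for its amber suppressor alleles, is a tRNA-Trp gene, and its identical copy sup-24 had 28.7. A further copy, sup-29, had no pooled region within 200 bp, its nearest summit being 266 bp away. At the distance limit, the best region just inside lay at 187 bp for C56G7.t1, 180 bp for B0491.t1 and 174 bp for Y40H7A.t1. C56G7.t1 also had a weaker summit, of 9.70, inside the gene, so it does not owe its region to the limit. Among the members just outside were ZK970.t4 at 214 bp and K04A8.t3 at 216 bp.

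Summits of the strong regions lay mostly just upstream of the tRNA gene. Over all 135 genes the median summit was 14 bp downstream of the annotated 5′ end (quartiles −31.5 and 70.5 bp). At the 28 strong genes the median was −21.5 bp, with 21 of 28 summits upstream of the gene and 18 within 60 bp upstream. At the other 107 genes it was 25 bp, inside the gene, with 38 summits, or 35.5%, upstream. All 8 of the first genes had an upstream summit: C27A2.t1 at −16, Y37A1B.t1 at −18, ZC412.t1 at −19, T21B4.t1 at −26, K06A4.t1 at −27, F11H8.t1 at −33, T19C4.t1 at −46 and ZK1067.t1 at −55 bp. The 31 strong tRNA genes of X had a median of 12 bp, with 14 upstream, and the strong snRNA genes of II to V a median of −49 bp, with 51 of 53 upstream. Between the replicate lists the summits of one gene differed by a median of 48 bp over 95 genes, 28.5 bp over 26 strong genes and 14.5 bp over the first 8. For most genes this spread was as large as the distances described, so positions of single weak genes could not be resolved. The difference in position between strong and other genes was not tested.

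**Figure D4:**
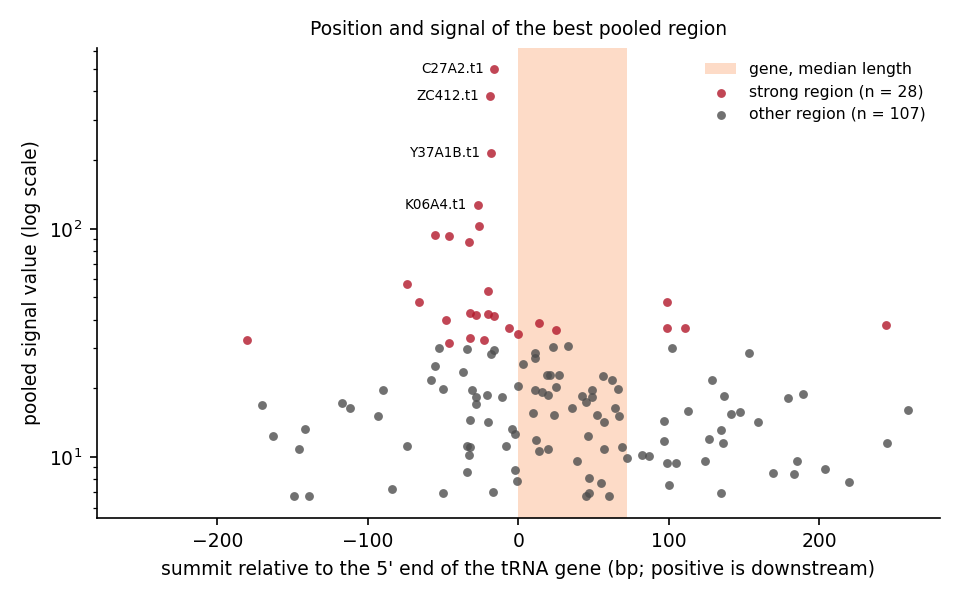
Pooled signal value (y axis, log scale) against the position of the summit relative to the annotated 5′ end of the tRNA gene in bp (x axis, positive is downstream) for the 135 genes with a region; red marks strong regions and the shaded band a gene of median length. All 8 genes of highest signal lie between −55 and −16 bp, whereas weaker regions scatter on both sides.

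Regions were spread over the isotypes. A pooled region was present at some gene of each of the 20 isotypes, with shares between 33.3% (tRNA-Ser, 6 of 18, and tRNA-Trp, 2 of 6) and 69.2% (tRNA-Glu, 9 of 13). Only tRNA-Asn, among these isotypes, had no gene with a region in all 3 lists. The Wilson interval of tRNA-Glu, 42.4% to 87.3%, overlapped that of tRNA-Ser, 16.3% to 56.3%, so these counts do not order the isotypes. Strong regions were found at 13 isotypes, most often tRNA-Ala and tRNA-Leu with 4 genes each, then tRNA-Ile, tRNA-Lys and tRNA-Thr with 3 each. The isotypes tRNA-Asp, tRNA-Val, tRNA-Gly, tRNA-His, tRNA-Met, tRNA-Trp and tRNA-Cys had no strong gene here. Their strongest members were F41A4.t1 (Asp) at 19.6, C05G6.t1 (Val) at 29.6, Y57G11B.t1 (Gly) at 30.6, W09G10.t1 (His) at 15.6, T15B12.t1 (Met) at 27.1, sup-5 (Trp) and ZC412.t2 (Cys) at 29.4. C05G6.t1 and T15B12.t1 were uneven between the libraries, at 20.9 and 23.0 in replicate 1 and 5.11 and 6.31 in replicate 2. W09G10.t1 had 16.9 in replicate 1 and no region in replicate 2, where the nearest summit lay 450 bp away. C08E8.t3, the gene with no annotated isotype, had no region.

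**Figure D5:**
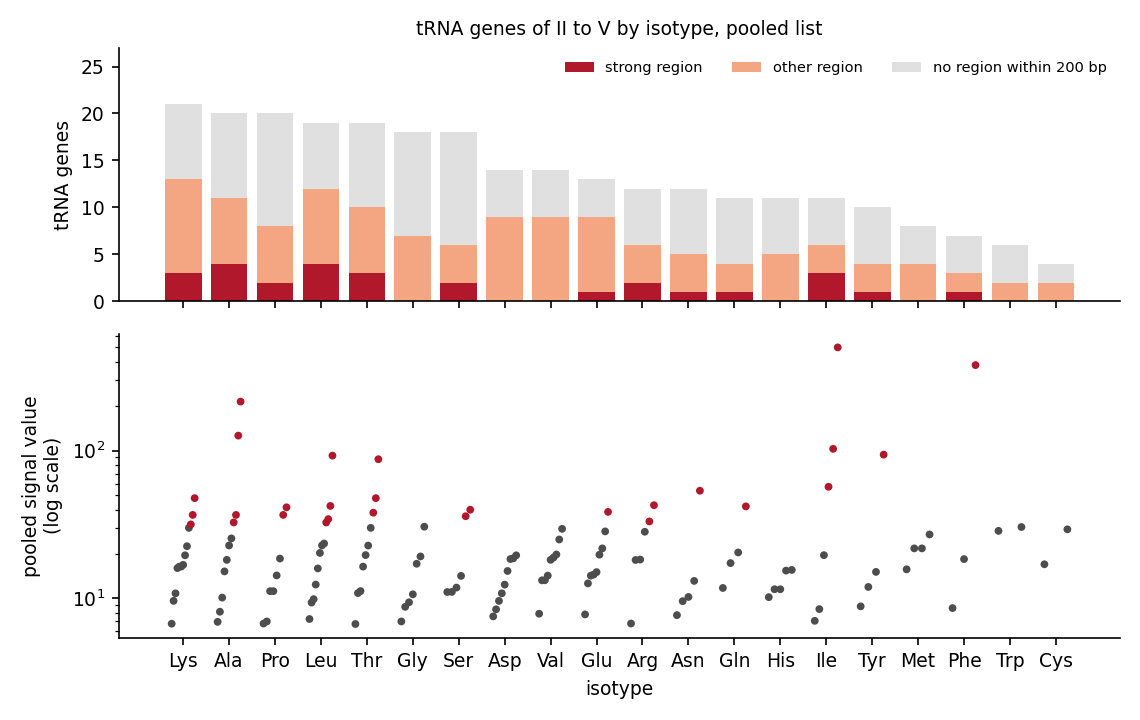
Top, number of tRNA genes of II to V per isotype (y axis) with a strong pooled region (red), another region (orange) or none within 200 bp (grey). Bottom, pooled signal value (log scale) of each gene with a region, red where strong; all 20 isotypes have a region, while values above 90 occur at Ile, Phe, Ala, Tyr and Leu only.

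Shares with a region differed little by setting, strand and chromosome, and their intervals overlapped. Of 149 genes in introns of coding genes, 47.0% had a region and 16 were strong; of 111 intergenic genes, 55.0% had one and 12 were strong. Intronic genes on the strand of their host had a region in 43 of 86 cases, and those on the opposite strand in 27 of 63. By chromosome the share was 59.6% on II, 48.4% on III, 52.9% on IV and 42.3% on V. Genes with another tRNA gene within 1 kb had a region in 46.8% of 79 cases, and the 190 others in 51.6%. Genes with no exact copy among tRNA genes had a region in 27 of 73 cases (26.8% to 48.4%). The share was 64.5% of 31 with 2 to 4 copies (46.95% to 78.9%) and 44.1% of 34 with 5 to 9 (28.9% to 60.6%). With 10 or more it was 55.7% of 131 (47.2% to 63.95%). The shares did not follow copy number in order. Intervals overlapped, though that of genes with no copy only narrowly with 2 to 4 and with 10 or more. Genes were also grouped by how many 30-base stretches, within 200 bp, occur once in the genome. At 90% to 100% unique, 35.3% of 51 had a region (23.6% to 49.0%). At 80% to 90%, 57.1% of 170 did (49.5% to 64.3%), an interval without overlap with the former. At 50% to 80% it was 46.3% of 41 (32.1% to 61.25%), an interval that overlapped both. Below 50% it was 1 of 7 (2.57% to 51.3%). The shares thus did not follow uniqueness in order. The stretches include the gene itself, so this grouping is not separate from copy number. The cause was not tested. K06A4.t1, ZK1067.t1, F57F5.t1 and K12H4.t1 were among the 6 strong genes with no copy.

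Other annotated genes stood near many of the summits. A coding transcript start lay within 200 bp of the summit at 7 of the 135 genes and at 0 of the 28 strong ones. Measured from the gene body, one lay within 200 bp at 9 of the 135 genes and at 9 of the 134 without a region. The 0 is thus not read as a trait of strong genes. A gene of another small RNA class lay within 200 bp of the summit at 4 genes. In each case it was a piRNA gene: B0350.t1 (31.7), F02H6.t1 (18.6), Y73F8A.t1 (13.3) and K03B8.t1 (also 13.3). A non-coding RNA gene overlapped the tRNA gene on the opposite strand at 66.7% of the 135 genes with a region (58.4% to 74.1%), at 82.1% of the 28 strong ones (64.4% to 92.1%) and at 52.2% of the 134 without (43.8% to 60.5%). ChIP-seq gives no strand, so signal at either gene of such a pair cannot be told apart.

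The promoter letters seen at strong snRNA genes were found less often before the tRNA genes, though not all were rarer there than before genes in general. Apart from CTGTTTCA, the upstream letters were chosen after snRNA and tRNA flanks had been read. Their higher share at snRNA genes was thus set in part by that choice and is no test. GTTCNANNC and an A box pattern were chosen after the tRNA genes had been read. One strong snRNA promoter is shown for contrast, the 100 bases before W05B2.8, whose pooled signal was 2651; capitals mark GGAACC, one match of TGTCNG, and TATATAA.
W05B2.8, chrIII:10989579-10989678, plus strand: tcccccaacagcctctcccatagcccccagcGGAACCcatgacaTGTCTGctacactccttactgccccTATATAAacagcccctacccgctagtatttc

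GGAACC, sought on both strands in the 100 bases upstream, was found before 1 of 269 tRNA genes (0.372%), against 43.4% of the 53 strong snRNA genes and 1.70% of 19798 genes of II to V without piRNA genes and pseudogenes. GAACCC, which overlaps it in 5 letters, was found before 2.97% of tRNA genes, 43.4% of strong snRNA genes and 1.69% of all genes. TGTCNG was found before 51 tRNA genes (18.96%), 62.3% of strong snRNA genes and 10.6% of all genes. TATATAA was found before 3 tRNA genes (1.12%), 20.8% of strong snRNA genes and 3.73% of all genes. At the 28 strong tRNA genes these letters were found at 1, 2, 6 and 0 genes. TGTCNG thus stood before 21.4% of the strong genes, 15.0% of the 107 with a weaker region and 21.6% of the 134 without a region. CTGTTTCA, the letters known from piRNA promoters, occurred on either strand within 250 bases upstream of 2.23% of tRNA genes and 2.24% of all genes, and before 0 of the 28 strong ones. Absence of a match says only that these letters are not in the window.

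Inside the genes, a loose form of the B box was found in most members, and stricter or A box letters in fewer. GTTCNANNC was found on the gene strand in 258 of 269 tRNA genes (95.9%), in 27 of 28 strong ones and in 95.5% of the 134 without a region. GGTTCGA, the stricter B box letters, which overlap it, were found in 62.1% of all members, in 71.4% of the strong ones and in 55.2% of those without a region. The A box pattern was found in 49.8% of members and 46.4% of the strong ones. On X, 97.1% of tRNA genes held GTTCNANNC, and 85.3% of the tRNA pseudogenes of II to V did. TTTT occurred in the 30 bases after the gene at 267 of 269 members and at 96.5% of the pseudogenes. GGTTCGA was found in 76.5% of the pseudogenes, a larger share than of the members, and the A box pattern in 47.1%. The share of pseudogenes with a region stood near the tiled background. A link between these letters and the regions was not tested.

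Genes that act with tRNA were looked at from lists chosen with earlier results of these data known. Of 33 aminoacyl-tRNA synthetase genes, which charge tRNA with amino acids, 17 had a pooled region within 200 bp of a transcript start, or 51.5% (35.2% to 67.5%), against 20.9% of 19971 coding genes. Their signals were between 7.18 (nars-2) and 108 (ears-2, a glutamyl-tRNA synthetase gene), and vars-1, the valyl enzyme gene, was next to ears-2 at 20.5. Only ears-2 was strong, 1 of 33, against 240 of the 19971 coding genes. A count of 1 does not set these shares apart. Of 17 genes, namely mafr-1 and genes for RNA polymerase III, TFIIIB, TFIIIC and SNAPc, 6 had a region, or 35.3% (17.3% to 58.7%). That interval holds the 20.9% of all coding genes. Among the 6 were rpac-19, a subunit shared by RNA polymerases I and III, at 45.7 and snpc-4 itself at 17.4.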

How the data were processed

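The 2 libraries were ChIP-seq against eGFP-tagged SNPC-4 in C. elegans embryos. Per the labels and the text deposited with the files, the authors called candidate peaks and background regions from alignments of each library and of both pooled against a control, as input for a reproducibility analysis (IDR); the sources used here name no aligner, caller or threshold. The deposited lists give a signal value per region, used to rank and describe regions within a list; between the replicate lists it was set side by side and correlated, without rescaling. They also give the summit's distance in bp from the region start. Lists in ce11 were used; of the ce10 lists only the number of thresholded peaks was. Genes, products and sequence came from RefSeq WBcel235. Summits were assigned to genes within 200 bp with Python 3.11.15, numpy 2.4.6, pandas 2.3.3 and scipy 1.17.1; the assignment was checked on 200 planted genes. Intervals are 95% Wilson intervals. No test was run: there is 1 group, without a control library here. Read depth is unknown.

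Genes named were the 20 of highest pooled signal, the strongest of each isotype, those at the signal and distance limits (1 of which is not reported here), the highest of each replicate and those at another small RNA gene. Members of identical families, and the synthetase and polymerase genes named, fall outside this rule and were chosen after their values were seen. The members and lists were chosen with earlier results of these data known. The comparison classes other than X tRNA and snRNA genes, the copy counts and the limit after the 8 strongest genes were added after the data were seen. The pooled list is made from the same 2 libraries and is not a further replicate; whether the replicates came from separate cultures is not stated.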

Additional observations from a re-analysis of the deposited data

How the results depend on the processing

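The share of tRNA genes with a region stayed between 36.99% (genes with no exact copy) and 62.1% (a window of 500 bp) under all 8 alternatives run, against 50.2%; the single replicate lists gave 46.1% to 51.3%. The share with a strong region was 4.46% (12 genes) with 549 regions called strong and 30.5% (82 genes) with the 5000 strongest, against 10.4%; the single lists gave 10.4% to 10.8%. The share in all 3 lists was 26.8% at 100 bp and 48.3% at 500 bp. The median summit, at 14 bp, changed side to −21.5 bp when only strong regions were kept, and was 2.5 to 8.5 bp in the single lists. Spearman's rank correlation between the replicates was 0.41 without the 8 strongest genes, an alternative chosen after seeing the data. The causes were not tested. No paired analysis was possible because there is 1 group. Unknown read depth, 2 libraries and no control library here limit every value.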
